A study of Rattus norvegicus with 4 samples.

Results

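The E2F transcription factors, the retinoblastoma (Rb) family and the G2/M regulators Mybl2 and Foxm1 were followed in cultured rat Schwann cells (SCs) after expression of the Egr2-AS, an antisense RNA to the Egr2 promoter. The rule named 10 genes by symbol (E2f1, E2f2, E2f4, E2f7, E2f8, Rb1, Rbl1, Rbl2, Mybl2 and Foxm1) out of the 17949 genes of the count table. Of these, 8 were found and all 8 passed the filter on low counts. E2f2 and E2f8 have no row under these symbols and were not analysed here.

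Primary SCs from rat sciatic nerve were infected for 48 h with a lentivirus that expresses the Egr2-AS (Lenti-AS, n = 2) or with the backbone control virus that carries a green fluorescent protein (Lenti-GFP, n = 2), and total RNA was sequenced. The vector of the Egr2-AS encodes a red fluorescent protein, so the groups differ in the reporter as well as in the Egr2-AS. Both groups grew in DMEM to which FBS (10%), antibiotics and the SC mitogens forskolin (4 μM) and heregulin-β1 (5 ng/ml) had been added. Strain, sex and age of the rats are not given in the labels. The labels call the samples biological replicates without saying that they came from separate cultures, and p-values here measure the spread between these samples.

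E2F factors switch on the genes for DNA replication when a cell leaves G1. E2f1 is an activator, E2f4 mostly acts with the Rb family to repress in resting cells, and E2f7 is an atypical E2F that represses without a DP partner and is itself induced by E2F activity. The Rb family, or pocket proteins, bind E2Fs and hold target genes silent until cyclin-dependent kinases phosphorylate them. Rb1 encodes pRb, Rbl1 a pocket protein that accumulates in cycling cells, and Rbl2 the pocket protein typical of resting cells. Later in the cycle Mybl2 (B-Myb) joins the MuvB complex and Foxm1 is recruited to it, and together they drive the genes of G2 and mitosis. SCs divide in culture and in injured nerve, and leave the cycle before they myelinate.

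Promoters are shown for 4 members, because the E2F family acts on several of its own genes: Rbl1, which was higher in Lenti-AS by the test, Mybl2 and E2f7, which did not pass it, and Rbl2, whose groups overlapped. RefSeq promoters of the GRCr8 assembly, 250 bases before to 50 bases after each annotated start, matched 5 of the 8 members: Rbl1 (chr3:166289327-166289626, minus strand), Mybl2 (chr3:172124555-172124854, plus strand), E2f7 (chr7:48036653-48036952, plus strand), Rb1 (chr15:54911808-54912107, minus strand) and Rbl2 (chr19:32096362-32096661, minus strand). The motifs searched, on both strands, were the E2F core (TTCCCGC or TTCGCGC or TTGGCGC or TTGCCGC), the cell cycle homology region or CHR of G2/M promoters (TTTGAA or TTCGAA) and the CCAAT box (CCAAT). A second form of the E2F site, GGCGGGA, was added after the promoters had been read, and it can overlap the first. Capitals mark each match.
Rbl1: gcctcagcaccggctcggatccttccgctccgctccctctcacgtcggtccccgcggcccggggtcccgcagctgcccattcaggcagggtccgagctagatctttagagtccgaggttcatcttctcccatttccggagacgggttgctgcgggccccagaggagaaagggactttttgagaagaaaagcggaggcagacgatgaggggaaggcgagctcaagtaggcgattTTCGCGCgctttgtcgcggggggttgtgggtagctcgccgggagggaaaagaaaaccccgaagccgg
Mybl2: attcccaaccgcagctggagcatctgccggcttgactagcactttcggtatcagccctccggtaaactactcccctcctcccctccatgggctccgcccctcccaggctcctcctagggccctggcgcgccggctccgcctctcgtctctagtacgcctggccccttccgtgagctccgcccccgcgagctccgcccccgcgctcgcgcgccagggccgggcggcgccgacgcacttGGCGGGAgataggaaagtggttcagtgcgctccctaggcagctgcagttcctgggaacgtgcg
E2f7: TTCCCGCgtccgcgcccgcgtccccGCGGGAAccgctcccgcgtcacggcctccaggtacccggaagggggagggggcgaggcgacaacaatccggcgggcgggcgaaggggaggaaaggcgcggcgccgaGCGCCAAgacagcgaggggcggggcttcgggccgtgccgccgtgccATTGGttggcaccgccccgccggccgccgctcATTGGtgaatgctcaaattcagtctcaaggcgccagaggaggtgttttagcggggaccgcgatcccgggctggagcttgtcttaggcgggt
Rbl2: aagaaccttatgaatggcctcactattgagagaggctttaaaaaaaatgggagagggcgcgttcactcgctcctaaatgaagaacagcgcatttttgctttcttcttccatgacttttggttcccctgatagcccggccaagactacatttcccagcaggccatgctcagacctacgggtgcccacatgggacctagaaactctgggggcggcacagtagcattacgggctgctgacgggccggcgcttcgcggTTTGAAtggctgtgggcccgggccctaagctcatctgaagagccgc
In the Rbl1 promoter the capitals are 1 E2F core that begins 17 bases before the start. In Mybl2 they are 1 GGCGGGA that begins 13 bases before the start. In E2f7 they are 3 E2F cores, beginning 250, 225 and 119 bases before the start, and 2 CCAAT boxes, at 73 and 41 bases. In Rbl2 they are 1 CHR just after the start, and neither E2F form was found in this window. The Rb1 promoter, not printed, held 2 E2F cores, one of them 113 bases before the start and overlapping a GGCGGGA, and the other just after the start. Of all 33469 promoters of this length, 9.52% held the E2F core, 10.5% GGCGGGA, 19.7% the CHR and 37.5% a CCAAT box. The 5 member promoters were rich in G and C, with 54.7% to 79.7%, against a median of 51.7% over all promoters, and the E2F forms consist largely of these letters. These are matches of letters, not measured binding sites.

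**Figure D1:**
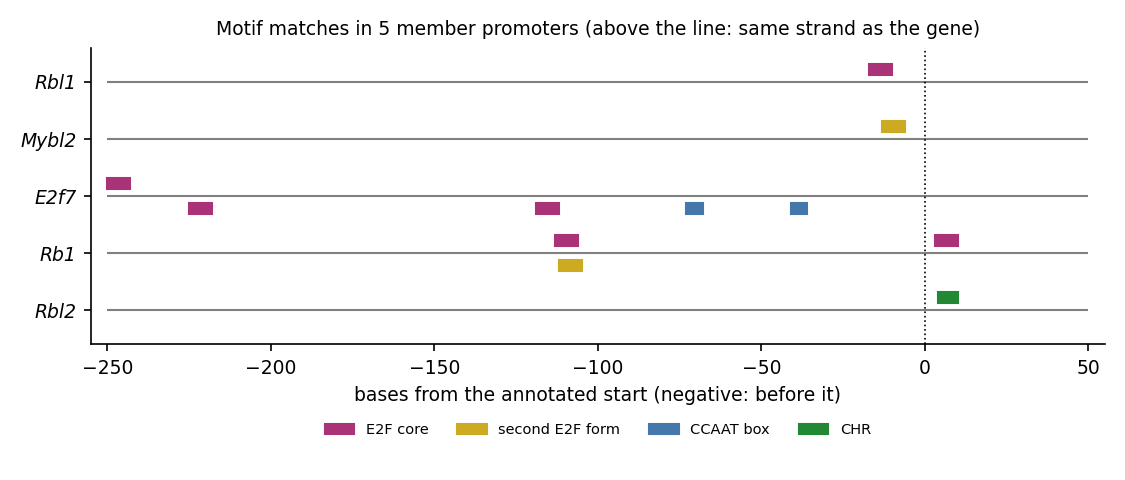
Motif matches along 5 member promoters, by distance in bases from the annotated start (dotted line), with matches on the strand of the gene above each line and those on the other strand below it. The single E2F forms of Rbl1 and Mybl2 lie within 17 bases of the start, an E2F core of Rb1 lies just after it, and Rbl2 holds a CHR only.

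Total counts were between 74024323 and 96185890 per library, and the members had 551 to 6095 counts each, so that counting error alone was 1.28% to 4.26%. Levels are given as CPM, the counts of a gene in proportion to the TMM-scaled library total. They are not divided by transcript length, and levels of different genes were therefore not compared. The SC markers reported here, among them Sox10, S100b and Erbb3, were above 1 CPM in every library. Fibroblast markers summed to 3813 and 4259 CPM in Lenti-GFP and to 2814 and 4673 CPM in Lenti-AS, nearly all from collagens, while Dcn, Lum and Thy1 were under 1 CPM throughout. Of these collagens, Col3a1 had 3261 and 2955 CPM in Lenti-GFP and 2198 and 2400 CPM in Lenti-AS (edgeR adjusted p = 0.0519, DESeq2 adjusted p = 4.9e-06). Macrophage markers summed to at most 4.24 CPM and endothelial markers to at most 21.0 CPM, nearly all from Tek, which had 19.8 and 20.2 CPM in Lenti-GFP and 15.3 and 14.7 CPM in Lenti-AS (edgeR adjusted p = 0.0559, DESeq2 adjusted p = 0.00324). Among the SC markers S100b, Ngfr and Erbb3 were higher in both Lenti-AS libraries than in either Lenti-GFP library and Pmp22 and Cdh19 lower, with log2 fold changes between -0.26 and 0.33. Of all genes tested, 27.7% were higher and 27.2% lower in both Lenti-AS libraries than in either Lenti-GFP library. No marker was called by edgeR, and the part of the marker differences in the members' levels was not tested. Red cell genes, 5 of 6 of them globins, summed to 3002 CPM in Lenti-AS 2 and at most 7.27 CPM elsewhere. Lenti-AS 1 stood apart in Sox10 and Col1a1, with 163 and 2131 CPM against at most 77.1 and 841 CPM in the other libraries. In bulk RNA, more cells in a phase of the cycle and more RNA per cell cannot be told apart.

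Of the 8 members measured, 3 were higher in Lenti-AS by the test: the activator E2f1, the pocket protein gene Rbl1 and the G2/M regulator Foxm1, with fitted fold changes of 1.33, 1.43 and 1.63. E2f7, Rb1 and Mybl2 had fold changes of 1.55, 1.35 and 1.53 and adjusted p-values between 0.0788 and 0.0845, and did not pass. E2f4 and Rbl2, the members associated with resting cells, had fold changes of 1.04 and 0.996. No member was lower by the test. Calls were made by edgeR's quasi-likelihood test at a Benjamini-Hochberg adjusted p under 0.05 over 12446 genes and a fold change of at least 1.3, by which 1.31% of all genes tested were higher and 0.667% lower in Lenti-AS.

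**Figure D2:**
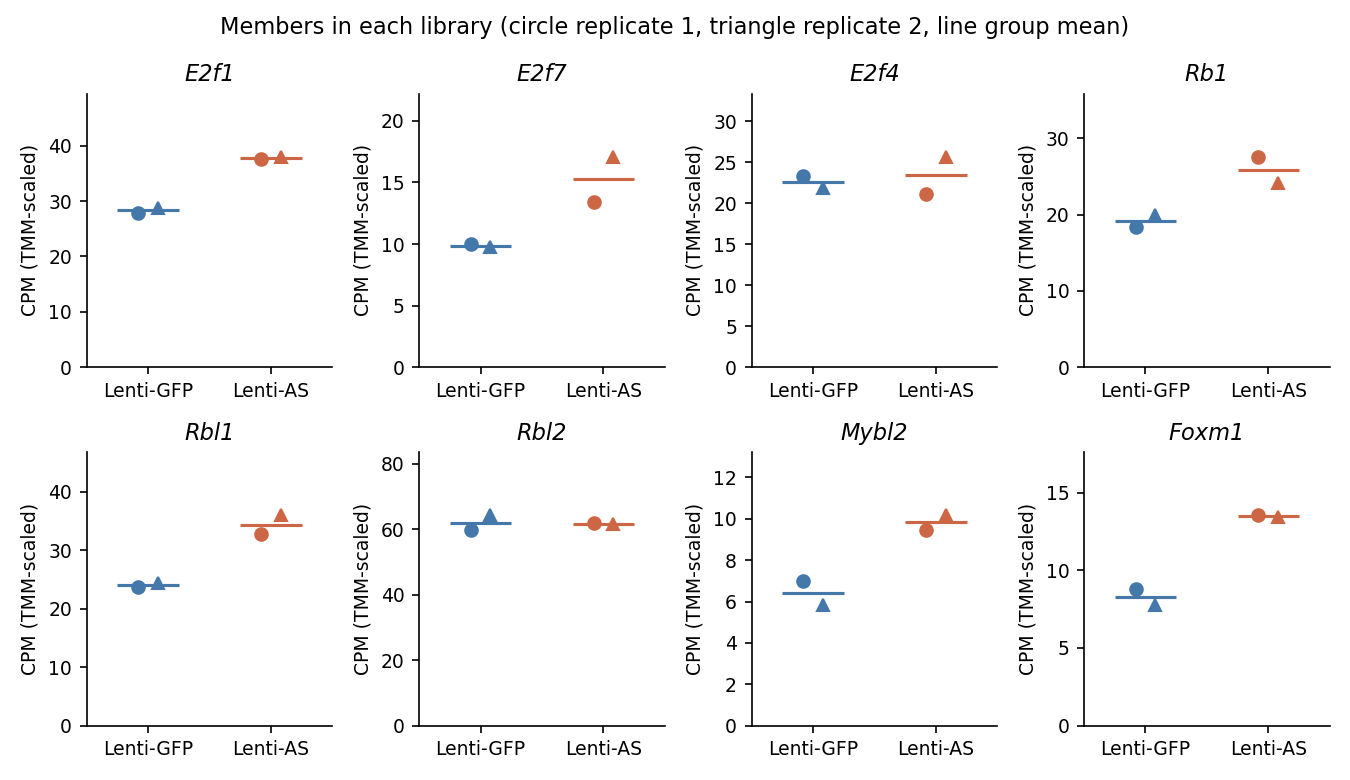
CPM of the 8 members in the 2 Lenti-GFP and 2 Lenti-AS libraries, with circles for replicate 1, triangles for replicate 2 and a line at each group mean. Both Lenti-AS values lie above both Lenti-GFP values for E2f1, E2f7, Rb1, Rbl1, Mybl2 and Foxm1, and the groups overlap for E2f4 and Rbl2.

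Among the E2Fs, E2f1 had 27.9 and 28.8 CPM in the Lenti-GFP libraries and 37.6 and 38.0 CPM in the Lenti-AS libraries. The groups did not overlap, and the gap of 8.81 CPM between them was larger than the 0.887 and 0.423 CPM between replicates. Its mean rose from 28.3 ± 0.627 to 37.8 ± 0.299 CPM (SD, n = 2 each), a log2 fold change of 0.42 with a standard error (SE) of 0.06 (edgeR adjusted p = 0.0419). The rise of E2f1 lay close to the fold limit, with a 95% interval of its fold change from 1.20 to 1.49, not adjusted for the number of genes.

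E2f7, the atypical repressor, had 9.99 and 9.75 CPM in Lenti-GFP and 13.4 and 17.1 CPM in Lenti-AS. Its Lenti-GFP libraries were almost level, while the Lenti-AS libraries lay 3.65 CPM apart, about as far as the gap of 3.45 CPM between the groups. The log2 fold change was 0.63 (SE 0.13, edgeR adjusted p = 0.0788). E2f4, the repressive partner of the pocket proteins, had 23.3 and 21.9 CPM in Lenti-GFP and 21.1 and 25.7 CPM in Lenti-AS. The Lenti-AS libraries lay on either side of the Lenti-GFP libraries, with a log2 fold change of 0.05 (SE 0.11, edgeR adjusted p = 0.810). The 95% interval of the E2f4 fold change was 0.864 to 1.24, so it does not reach the 1.3-fold limit in either direction.

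In the Rb family, Rbl1 had 23.7 and 24.5 CPM in Lenti-GFP and 32.7 and 36.0 CPM in Lenti-AS. The groups were 8.26 CPM apart at their nearest libraries, more than the 3.26 CPM between the Lenti-AS libraries. The means were 24.1 ± 0.545 and 34.3 ± 2.30 CPM (SD, n = 2 each), and Rbl1 rose with a log2 fold change of 0.51 (SE 0.07, edgeR adjusted p = 0.0389), the smallest adjusted p of the 8 members. Rb1 had 18.4 and 19.9 CPM in Lenti-GFP and 27.6 and 24.1 CPM in Lenti-AS. Both Lenti-AS libraries were above both Lenti-GFP libraries by at least 4.19 CPM, against 3.48 CPM between the Lenti-AS libraries, with a log2 fold change of 0.43 (SE 0.09, edgeR adjusted p = 0.0800).

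Rbl2 had 59.7 and 64.3 CPM in Lenti-GFP and 61.8 and 61.7 CPM in Lenti-AS. Both Lenti-AS libraries fell between the Lenti-GFP libraries, and the log2 fold change was -0.01 (SE 0.07, edgeR adjusted p = 0.969). The 95% interval of its fold change, 0.881 to 1.13, does not reach the 1.3-fold limit in either direction.

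Of the G2/M activators, Foxm1 had 8.81 and 7.79 CPM in Lenti-GFP and 13.5 and 13.4 CPM in Lenti-AS. The Lenti-AS libraries differed by 0.108 CPM and lay 4.63 CPM above the higher Lenti-GFP library. Foxm1 rose from 8.30 ± 0.721 to 13.5 ± 0.0763 CPM (SD, n = 2 each), with a log2 fold change of 0.70 (SE 0.11, edgeR adjusted p = 0.0417). This was the largest fitted change of the 8 members, and 3.75% of all genes tested had a higher one. Mybl2, whose counts of 551 to 831 were the lowest of the members, had 7.02 and 5.81 CPM in Lenti-GFP and 9.48 and 10.2 CPM in Lenti-AS. Its groups did not overlap either, with a gap of 2.47 CPM against 1.20 CPM between the Lenti-GFP libraries, and the log2 fold change was 0.62 (SE 0.14, edgeR adjusted p = 0.0845).

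**Figure D3:**
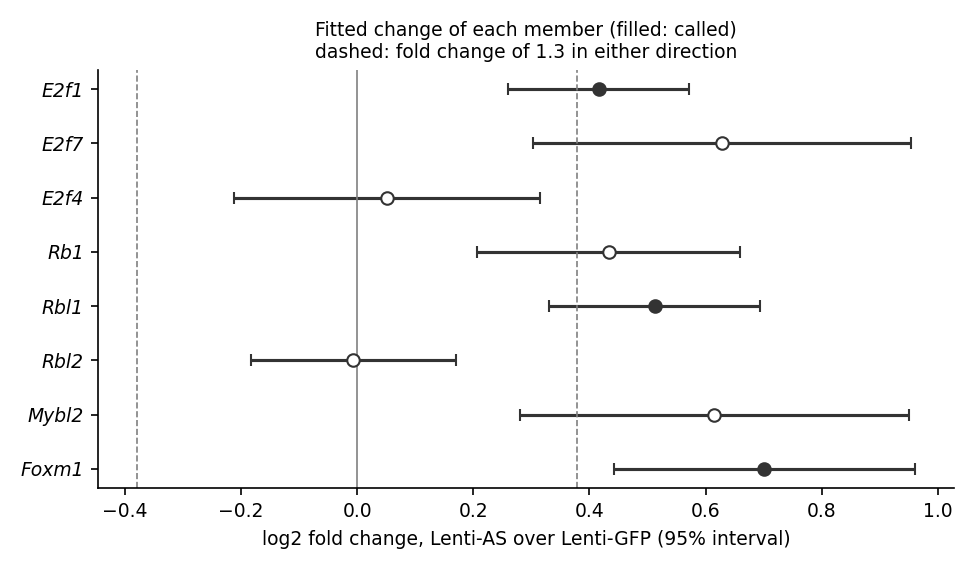
Fitted log2 fold change of each member, Lenti-AS over Lenti-GFP, with its 95% interval from edgeR's quasi-likelihood fit (not adjusted for the number of genes), filled points for called members and dashed lines at a fold change of 1.3. The called members are E2f1, Rbl1 and Foxm1, and the intervals of E2f4 and Rbl2 lie within the dashed lines.

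For 6 of the 8 members both Lenti-AS libraries were above both Lenti-GFP libraries, which was so for 27.7% of all genes tested, and for 0 members both were below (27.2% of all genes). The same 6 had an unadjusted edgeR p under 0.05 with a higher level, where 12.5% of all genes were higher, and 0 members were lower at that limit, where 9.37% were. With DESeq2's Wald test in place of edgeR's, the members called higher were E2f1, E2f7, Rb1, Rbl1, Mybl2 and Foxm1 (6 of 8), where 3.92% of all genes tested were called higher. DESeq2 called 0 members lower, against 1.12% of all genes. It also called higher the globin genes Hbb, Hbb-b1, Hba-a1, Hbz and Hbe1 (DESeq2 adjusted p between 0.00592 and 0.00921). These were high in Lenti-AS 2 alone, so a DESeq2 call can rest on 1 library. The same 6 members were called by edgeR at an adjusted p under 0.1, where 2.76% of all genes tested were higher. At that limit 0 members were lower, against 1.07%. With either Lenti-GFP library left out, 0 members were called, and without Lenti-AS 1 or Lenti-AS 2 there were 5 and 6. Over all genes, 0 were called higher without either Lenti-GFP library, and 570 and 1266 without Lenti-AS 1 or Lenti-AS 2. In these 4 fits the log2 fold change stayed between 0.40 and 0.44 for E2f1, 0.44 and 0.58 for Rbl1, and 0.62 and 0.80 for Foxm1.

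To compare members without any scaling of the libraries, the counts of 2 members were divided within each library. The log2 ratio of E2f1 to E2f4 was 0.26 and 0.40 in Lenti-GFP and 0.83 and 0.57 in Lenti-AS, a difference of 0.37 between the means. The log2 ratio of Rbl1, the pocket protein gene of cycling cells, to Rbl2, that of resting cells, was -1.33 and -1.39 in Lenti-GFP and -0.92 and -0.78 in Lenti-AS, and so 1.43-fold higher. Both ratios were higher in each Lenti-AS library than in either Lenti-GFP library. For both the exact permutation test over the samples gave p = 0.333 (two-sided, 0.667 adjusted over the 4 ratios), the smallest that this test can give with 2 against 2. The log2 ratios of Foxm1 to Mybl2 (0.33 and 0.42 in Lenti-GFP, 0.51 and 0.40 in Lenti-AS) and of Rbl1 to Rb1 (0.37 and 0.30 in Lenti-GFP, 0.25 and 0.58 in Lenti-AS) overlapped between the groups.

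**Figure D4:**
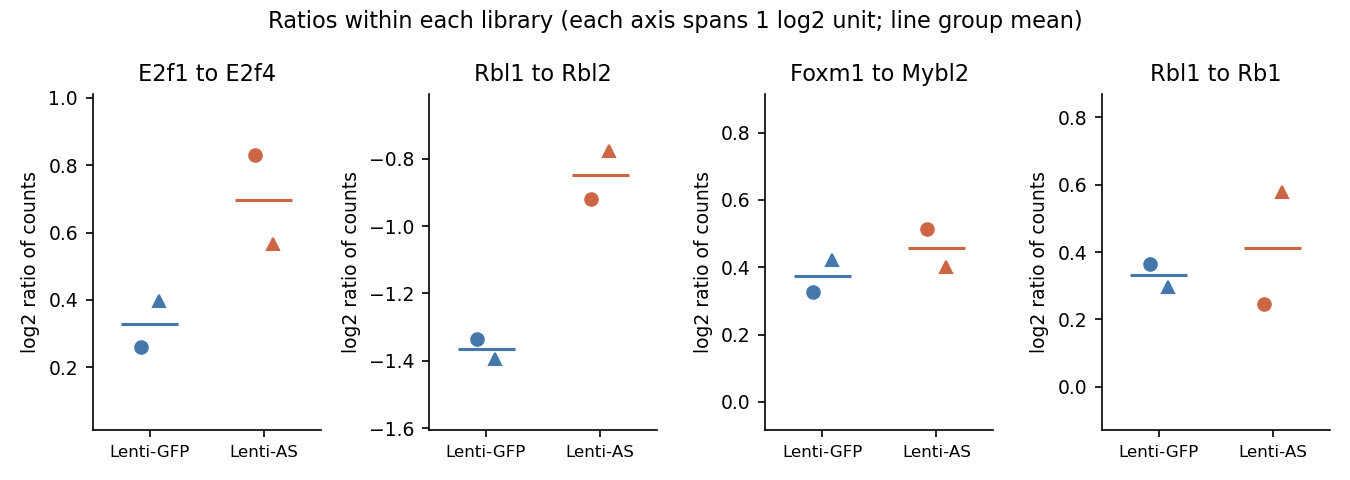
Log2 ratio of the counts of 2 members within each library, with circles for replicate 1, triangles for replicate 2 and a line at each group mean, and each vertical axis spanning the same range. The E2f1 to E2f4 and Rbl1 to Rbl2 ratios are higher in both Lenti-AS libraries, and the other 2 ratios overlap.

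The partners of the members in these complexes made a further list. This list of 13 genes held other E2Fs, the DP partners, MuvB subunits, the kinase Dyrk1a, which assembles the repressive form of MuvB, and the other Myb genes, and 9 of them had counts. Of these 9, 0 were called higher and 0 lower by edgeR, where 1.31% and 0.667% of all genes tested were. DESeq2 called 0 in either direction, where 3.92% and 1.12% of all genes were called. With 9 genes and such shares, 0 calls say little about the partners. At an unadjusted edgeR p under 0.05, 3 were higher and 0 lower, where 12.5% and 9.37% of all genes were. The median log2 fold change was 0.04, against 0.01 over all genes tested. The activator E2f3 had 8.77 and 9.04 CPM in Lenti-GFP and 10.9 and 11.3 CPM in Lenti-AS, a log2 fold change of 0.31 (SE 0.10, edgeR adjusted p = 0.151). Mybl1 (A-Myb) and the DNA-binding MuvB subunit Lin54 had log2 fold changes of 0.31 and 0.25 (edgeR adjusted p = 0.125 and 0.180). The main DP partner Tfdp1 and the repressor E2f6 lay at 0.01 and -0.05 (edgeR adjusted p = 0.953 and 0.729). Tfdp2, another DP gene, lay at -0.11 (edgeR adjusted p = 0.385), and Lin37, Rbbp4 and Dyrk1a at 0.04, 0.04 and 0.10. Both Lenti-AS libraries were above both Lenti-GFP libraries for 4 of the 9 partners and below them for 1, Tfdp2. Of all genes tested, this was so for 27.7% and 27.2%. Leaving out one library put the median of the list between 0.07 and 0.09.

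Among genes that act on the pocket proteins, 14 had counts, namely D-type cyclins, their kinases, kinase inhibitors, Myc and Skp2. Of these 14, 1 was called higher and 0 lower by edgeR and by DESeq2 (median log2 fold change 0.14). Of all genes tested, edgeR called 1.31% higher and 0.667% lower, and DESeq2 3.92% and 1.12%. The called gene was Cdkn1a, which encodes the inhibitor p21 and so keeps pocket proteins bound to E2Fs. It had 16.8 and 15.2 CPM in Lenti-GFP and 61.5 and 41.2 CPM in Lenti-AS (log2 fold change 1.68, SE 0.19, edgeR adjusted p = 0.0247). Leaving out one library put its log2 fold change between 1.37 and 1.94. The call was lost without either Lenti-GFP library, as was every other call of a higher gene. With a block for replicate number the call stayed (edgeR adjusted p = 0.0196). The cyclin gene Ccnd3 had 139 and 140 CPM in Lenti-GFP and 171 and 176 CPM in Lenti-AS, with an edgeR adjusted p of 0.0463 and a fold change of 1.25, under the limit for a call. Ccnd1 and Ccnd2 had log2 fold changes of 0.28 and 0.26 (edgeR adjusted p = 0.117 and 0.0688), and the inhibitor gene Cdkn2c one of 0.36 (edgeR adjusted p = 0.0755). The kinase gene Cdk4 and the inhibitor gene Cdkn1b lay at 0.06 and -0.09 (edgeR adjusted p = 0.559 and 0.357). The inhibitor genes Cdkn1c and Cdkn2b lay at -0.17 and -0.11 (edgeR adjusted p = 0.305 and 0.372). Like Cdkn1b, they were lower in both Lenti-AS libraries than in either Lenti-GFP library. Of the 14 genes, 3 were lower in this way and 10 higher, among the latter the inhibitor genes Cdkn1a, Cdkn2a and Cdkn2c. Of all genes tested, 27.2% were lower and 27.7% higher in this way. Cdk2, Cdk6, Cdkn2a, Myc and Skp2 had log2 fold changes of 0.16, 0.12, 0.11, 0.37 and 0.02, and none passed the test.

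Of 40 G1/S genes with counts, from a list of known E2F targets, 5 were called higher by edgeR and 0 lower, and the median log2 fold change was 0.27. The called genes were Rrm2 and Tk1, which serve nucleotide supply, Mcm3 and Mcm5, subunits of the replicative helicase, and Uhrf1, which maintains DNA methylation. Rrm2 had 33.1 and 33.4 CPM in Lenti-GFP and 52.1 and 52.1 CPM in Lenti-AS (log2 fold change 0.65, SE 0.06, edgeR adjusted p = 0.0192). The folds of these 5 genes were between 1.31 and 1.62. DESeq2 called 14 of the 40 higher and 0 lower, beside 3.92% and 1.12% of all genes tested. For edgeR these shares of all genes were 1.31% and 0.667%.

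Of 48 G2/M genes with counts, from a list of known targets of Mybl2, Foxm1 and MuvB, 32 were called higher by edgeR and 0 lower, and the median log2 fold change was 0.49. The smallest adjusted p-values belonged to Cenpf, a kinetochore protein gene, Ube2c, whose product works with the anaphase promoting complex, Gtse1 and Ckap2. Cenpf had 91.0 and 91.7 CPM in Lenti-GFP and 143 and 143 CPM in Lenti-AS (log2 fold change 0.65, SE 0.05, edgeR adjusted p = 0.0144). The folds of the 32 genes ran from 1.31 to 1.91, the highest for Gtse1. DESeq2 called 40 of the 48 higher and 0 lower, beside 3.92% and 1.12% of all genes tested. With either Lenti-GFP library left out, 0 genes of the G1/S and G2/M lists were called, and without Lenti-AS 1 or Lenti-AS 2 there were 14 of the G1/S list in each, and 35 and 42 of the G2/M list. These stand beside 0 genes called higher in all without either Lenti-GFP library, and 570 and 1266 without Lenti-AS 1 or Lenti-AS 2. The share of the G2/M list called higher by edgeR was 66.7% and that of the G1/S list 12.5%, beside 1.31% of all genes tested. In either list 0 genes were called lower by edgeR, where 0.667% of all genes were. Both lists were written with earlier results of these data known, and the difference between the lists was not tested. At an unadjusted edgeR p under 0.05, 27 of the 40 G1/S, 45 of the 48 G2/M and 5 of the 14 input genes were higher. Of all genes tested, 12.5% were. At that limit 0 genes of these lists were lower, against 9.37% of all genes.

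**Figure D5:**
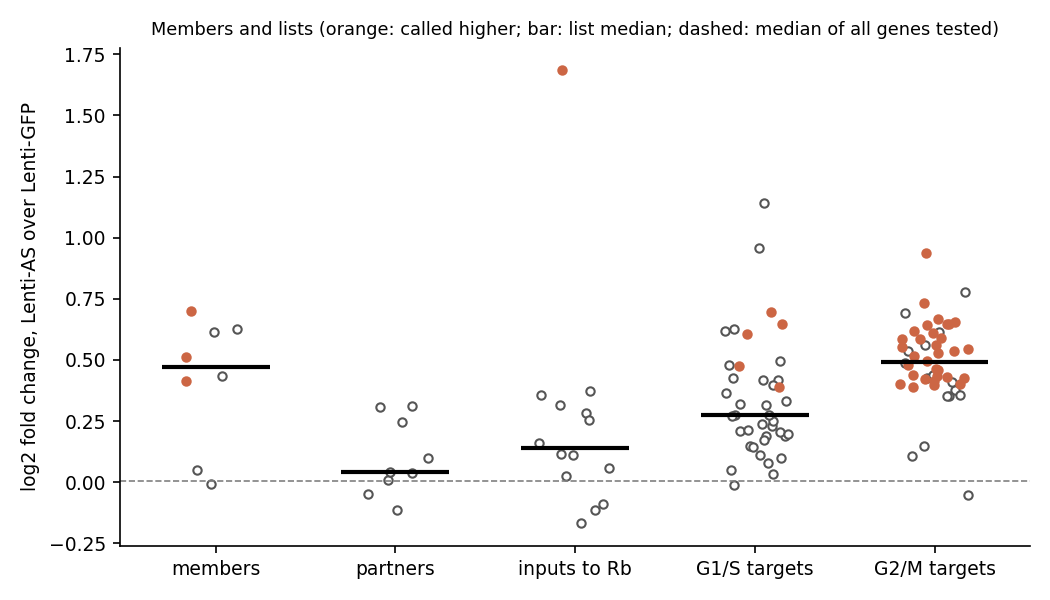
Log2 fold change, Lenti-AS over Lenti-GFP, of each measured member and of the genes of 4 lists, with called genes in orange, a bar at each median and a dashed line at the median of all genes tested. The medians are 0.47 for the members, 0.04 for the partners, 0.14 for the inputs to Rb, 0.27 for the G1/S targets and 0.49 for the G2/M targets.

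Between the G1/S and G2/M lists, the E2F core was more frequent in the promoters of the G1/S genes and the CHR in those of the G2/M genes. Both lists hold known targets and were chosen, like the motifs, with earlier results known. This contrast was therefore partly set in advance. Of the 34 G1/S genes with a RefSeq promoter, 29 held the E2F core (85.3%) and 8 the CHR (23.5%), and 21 a CCAAT box (61.8%). Of the 45 G2/M genes with one, 8 held the E2F core (17.8%) and 35 the CHR (77.8%), and 34 a CCAAT box (75.6%). The CHR was also held by 66.7% of the 9 partners and 10% of the 10 inputs with a promoter, and the E2F core by 33.3% and 30%. GGCGGGA was held by 44.1% of the G1/S genes, 26.7% of the G2/M genes, 44.4% of the partners and 60% of the inputs. Over all promoters the shares were 9.52% for the E2F core, 19.7% for the CHR, 37.5% for a CCAAT box and 10.5% for GGCGGGA. These last shares count promoters, while those of the lists count genes, each held to carry a motif if any of its promoters did. Median G and C content was 60% for the G1/S, 58.7% for the G2/M, 56% for the partner and 65% for the input promoters. Over all promoters it was 51.7%. Among the 5 members with a promoter, Rbl1, E2f7 and Rb1 carried the E2F core and no CHR in this window.

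The genes whose pattern over the 4 libraries was most like a member were sought for the 3 members with the largest fold changes, by the root mean square difference of log2(CPM + 1) values centred on their mean, among the 7796 other genes whose mean was 10 CPM or more. Closest to Foxm1 were Fancd2, of the Fanconi repair pathway, Gjb1, the gap junction gene of myelinating SCs, and the mitotic gene Cdc20, at differences of 0.027, 0.029 and 0.030. Closest to E2f7 were the mitotic genes Plk1, Cenpt and Incenp, at 0.037, 0.044 and 0.047. Closest to Mybl2 were the amino acid transporter gene Slc7a1, the hedgehog ligand gene Shh and Fam43a, at 0.022, 0.023 and 0.028. Over only 4 libraries such nearness describes these samples and was not tested.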

How the data were processed

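The deposited table holds whole-number counts per gene for the 4 samples, which the authors made from 50 bp paired-end reads. Per the paper the reads were aligned to rn6 with hisat2 and counted with featureCounts over RefSeq exons, while the submitters' processing notes name GSNAP in place of hisat2. Versions and the settings for strand and multiply mapped reads are not given in the sources used here, so reads of overlapping antisense genes may be included. A row repeating the header was dropped. All columns were used.

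Of 17949 genes, the 12446 with 10 or more counts in 2 or more samples entered edgeR 4.0.16 under R 4.3.3 (TMM factors, glmQLFit, glmQLFTest, no replicate term). Standard errors were computed from the F statistic and 95% intervals from the t distribution with the degrees of freedom of the fit. DESeq2 1.42.0, limma-voom (limma 3.58.1), the likelihood ratio test, RLE, upper-quartile and no scaling factors, other low-count filters and cut-offs, a replicate block and leaving out each sample were alternatives. DESeq2 gave no adjusted p for 2413 genes, which stayed out of its calls. The fit was tested on simulated counts with known changes. The members, lists and motifs were chosen with earlier results of these data known. Named were all members, the genes of the partner and input lists, and of each other list the 4 called genes with the smallest adjusted p. The fifth called G1/S gene was named because only 5 were called. The ratio of E2f8 to E2f7 had been planned and could not be formed, since E2f8 has no row.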

Additional observations from a re-analysis of the deposited data

How the results depend on the processing

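With RLE, upper-quartile or no scaling factors, limma-voom, either other low-count filter, no minimum fold or the red cell genes left out (the last chosen after seeing the data), E2f1, Rbl1 and Foxm1 (3 members) were called. DESeq2, the likelihood ratio test and an adjusted p under 0.1 each called 6 members, a minimum fold of 1.5 called 1 (Foxm1), and leaving out one sample 0 to 6; no setting called a member lower. Over all genes, against 163 higher and 83 lower, DESeq2 called 488 and 139, the likelihood ratio test 374 and 147, an adjusted p under 0.1 344 and 133, and a minimum fold of 1.5 81 and 43. Leaving out one sample gave 0 to 1266 higher and 1 to 271 lower. The G1/S list, with 5 called, held 14 with DESeq2, 11 with the likelihood ratio test, 8 with no low-count filter, 12 at an adjusted p under 0.1, 3 at a minimum fold of 1.5, and 0 to 14 with one sample left out. The G2/M list, with 32 called, held 12 at a minimum fold of 1.5 and 0 to 42 with one sample left out. The inputs list, with 1 called, held 2 with no minimum fold and 0 to 2 with one sample left out. When one sample was left out, its group had a single library, assumed to vary like the other group.

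The labels do not say that libraries of equal number share a culture, and the deviations of such libraries from their group means were not correlated (r = -0.00727 across genes). Under a replicate block, which leaves fewer residual degrees of freedom, edgeR called 3 genes higher and 14 lower, 0 members, 0 of the G1/S list and 0 of the G2/M list. Cdkn1a of the inputs list was among the 3 called higher (edgeR adjusted p = 0.0196). The adjusted p was then 0.119 for E2f1, 0.0915 for Rbl1 and 0.0915 for Foxm1.

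Rbl2 had a log2 fold change of 0.0257 when library totals replaced TMM, which put the median over all genes at 0.04, and of 0.0043 for upper-quartile factors. Leaving out one sample gave -0.0552 to 0.0491 for Rbl2, -0.0956 to 0.19 for E2f4, -0.0401 to 0.0541 for Tfdp1, -0.0672 to 0.168 for Lin37, -0.0414 to 0.115 for Rbbp4, -0.0488 to 0.0934 for Skp2 and a difference of -0.0851 to 0.25 in the log2 ratio of Rbl1 to Rb1. None of these was called. The cause of the changes in counts was not tested.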

Other observations

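Outside the members and lists, 2 further genes have a deposited description that names E2F, and they were picked for that description. Eapp, an E2F-associated phosphoprotein, had 71.4 and 75.9 CPM in Lenti-GFP and 70.6 and 63.9 CPM in Lenti-AS (log2 fold change -0.13, SE 0.08, edgeR adjusted p = 0.383). LOC303566, described as inducible by E2f1, had 1.01 and 1.14 CPM in Lenti-GFP and 1.33 and 1.66 CPM in Lenti-AS, from 94 to 125 counts (log2 fold change 0.48, SE 0.24, edgeR adjusted p = 0.297). Neither passed the test.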
